A study of Homo sapiens with 2 samples.

Results

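The 10 genes described here encode proteoglycan core proteins: the syndecans SDC1, SDC2 and SDC4, the glypican GPC1, the small leucine-rich proteoglycans decorin (DCN), biglycan (BGN) and lumican (LUM), the hyaluronan-binding proteoglycan versican (VCAN), and the basement membrane proteoglycans perlecan (HSPG2) and agrin (AGRN). They were chosen by symbol, 10 of the 33694 genes of the matrix, with their levels in these cells already known from an earlier analysis, so every value below is a description and none is a test. The cells were 3 lines made by gene editing from C1, a stably epithelial clone of HMLER, an immortalised and RAS-transformed human mammary epithelial line. C1-sgControl carried a control guide, C1-sgEED a knockout of EED, which belongs to the Polycomb complex PRC2, and C1-sgKMT2D a knockout of KMT2D, a methyltransferase of enhancer histone H3. All 3 lines share the transformed C1 background and were grown in 1 medium that contained insulin, EGF and hydrocortisone. The lines were stained with hashtag antibodies, pooled and read as 1 gene expression library and 1 hashtag library, so each line is 1 sample without a replicate. Hashtags 1, 3 and 4 stand for C1-sgControl, C1-sgEED and C1-sgKMT2D in the labels, and the cells of hashtag 2, to which the labels give no line, are described without a ratio to a line. The titles call the libraries a mix of clones without saying how many a line held, so clones that differ and cells that switched state cannot be told apart.

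Proteoglycans are proteins that carry glycosaminoglycan chains, long sulfated sugars such as heparan sulfate on syndecans, glypicans, perlecan and agrin, and chondroitin or dermatan sulfate on decorin, biglycan and versican. The heparan sulfate forms at the cell surface and in the basement membrane bind growth factors and laminins, and SDC1 is the main syndecan of epithelia, where its loss is a known feature of epithelial-to-mesenchymal transition. Decorin, biglycan, lumican and versican are typical products of fibroblasts and other mesenchymal cells, where they bind collagen or hyaluronan in the matrix between cells.

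Promoter sequences are shown for SDC1, SDC4 and GPC1 with the E-box motif, which ZEB1, a repressor of epithelial genes, is known to bind. Whether ZEB1 acts on these genes was not tested. Few ZEB1 UMIs were read in KRT17-rich cells. The control had 0.638 CPM, the EED knockout 0.552 CPM, which is the level of 3 UMIs in that group, and the KMT2D knockout 1.51 CPM. SDC1 in the same cells was 1.89-fold below control after EED knockout and 2.31-fold below it after KMT2D knockout. The relation between these ZEB1 and SDC1 levels was not tested. The letters of the motif are CACCTG, or CAGGTG when read from the other strand. Both were searched in the 250 bases before the RefSeq start of each gene (GRCh38.p14), and 6 of the 10 genes had an entry. SDC1 has 2 starts in that table. The window of its first start held 1 match, beginning 29 bases before the start, and the windows of its other start and of SDC4, GPC1, BGN, VCAN and HSPG2 held 0. Of all 35116 such windows, 17.5% held the motif, and a match is only a match of letters. SDC1 (first start, minus strand, chr2:20225476-20225725) is shown beside SDC4 (minus strand, chr20:45348425-45348674), which held no match. Also shown is GPC1 (plus strand, chr2:240435413-240435662), whose level differed little between the cell states of the knockouts. Capitals mark the motif.
SDC1: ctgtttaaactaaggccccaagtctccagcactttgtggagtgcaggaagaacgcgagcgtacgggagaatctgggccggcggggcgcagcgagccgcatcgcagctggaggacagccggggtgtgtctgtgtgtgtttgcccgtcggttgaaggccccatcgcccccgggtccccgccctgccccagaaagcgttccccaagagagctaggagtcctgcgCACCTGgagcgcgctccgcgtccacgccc
SDC4: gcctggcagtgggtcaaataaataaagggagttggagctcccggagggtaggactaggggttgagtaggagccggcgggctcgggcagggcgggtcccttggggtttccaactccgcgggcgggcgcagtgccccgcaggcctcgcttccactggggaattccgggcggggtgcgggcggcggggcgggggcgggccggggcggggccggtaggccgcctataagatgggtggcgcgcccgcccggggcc
GPC1: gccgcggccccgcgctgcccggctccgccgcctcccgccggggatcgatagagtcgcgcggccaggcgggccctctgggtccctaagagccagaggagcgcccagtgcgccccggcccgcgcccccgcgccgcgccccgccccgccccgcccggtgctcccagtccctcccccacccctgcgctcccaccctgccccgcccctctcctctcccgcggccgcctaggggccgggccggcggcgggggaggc
These 3 windows held 23, 26 and 36 CpG dinucleotides, against a median of 11 over all windows.

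The cells kept with a single hashtag numbered 1721 for the control, 2341 for C1-sgEED and 2349 for C1-sgKMT2D, at medians of 5672, 3919 and 5526 UMIs per cell and 9928063 to 13963548 UMIs per line. Of the control cells 27.2% fell to the filter, and of those of the knockouts 6.70% and 5.93%. Each cell was called VIM-rich when it held more UMIs of vimentin (VIM), an intermediate filament of mesenchymal cells, than of the basal keratin KRT17, and KRT17-rich when the reverse held. By this rule C1-sgControl had 1619 KRT17-rich and 68 VIM-rich cells, C1-sgEED 1103 and 1192, and C1-sgKMT2D 1155 and 1143. Between VIM shares of 0.4 and 0.6 lay 134, 162 and 315 cells of these lines, so the states are ranges of a ratio and not cell types. ZEB1 was at 37.5 CPM in the VIM-rich cells of C1-sgEED, 19.2 in those of C1-sgKMT2D and 0 in those of C1-sgControl, and under 2 CPM in all KRT17-rich groups, where the highest value was 1.80. The sum of 10 epithelial markers was 2530 and 3022 CPM in the VIM-rich cells of the knockouts but 7630 CPM in the 68 VIM-rich control cells, so these enter no comparison. Of the markers of other cell types, PTPRC, CD3E, LYZ and TYROBP (immune), CDH5 (endothelial) and SOX10 (neural) were at 0 in every group. The summed levels of the immune, endothelial and neural lists ranged over 10.9 to 27.6, 0.425 to 2.47 and 0 to 24.5 CPM, the last being almost all NEFL in VIM-rich C1-sgEED cells (23.8 CPM). The EED transcript was at 20.1 CPM in KRT17-rich and 5.75 CPM in VIM-rich C1-sgEED cells, against 13.1 in KRT17-rich control cells, and the KMT2D transcript was at 5.03 and 5.14 CPM in C1-sgKMT2D against 4.57 in the control. Where the edits lie is not known here, and an edit upstream of the 3′ tag need not change it, so these levels check the labels little.

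**Figure D1:**
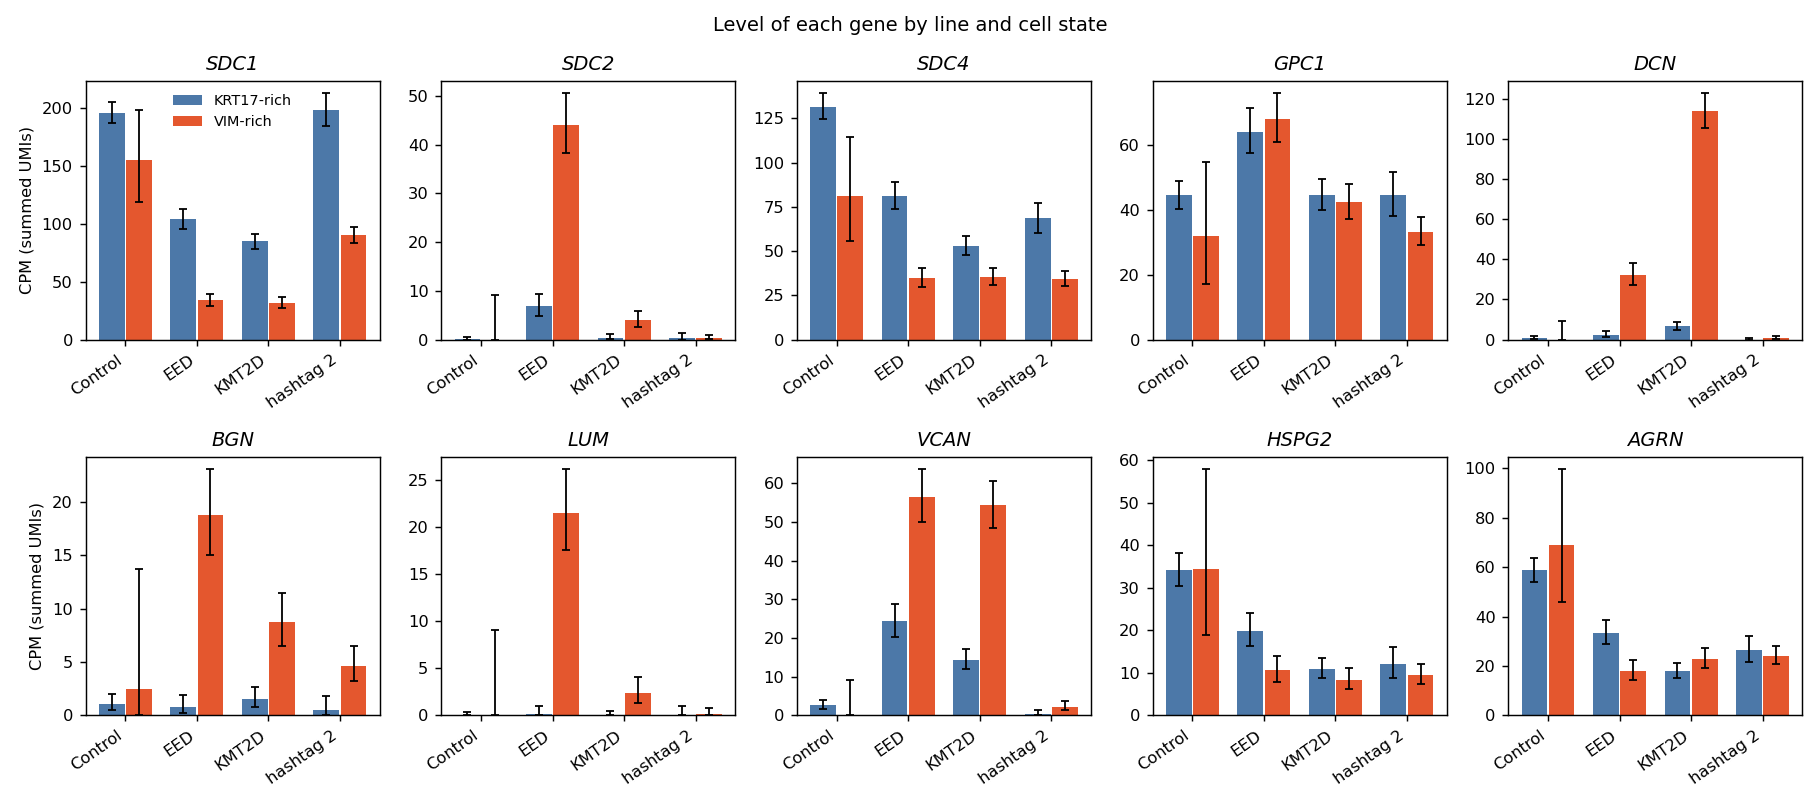
Level of each of the 10 genes (CPM, linear axis) in the KRT17-rich and VIM-rich cells of each line and of hashtag 2, with exact 95% Poisson intervals of the summed UMIs. Among the 3 lines SDC1 and SDC4 are highest in KRT17-rich control cells (196 and 132 CPM), SDC1 being at 199 CPM in KRT17-rich hashtag 2 cells, while DCN reaches 114 CPM in VIM-rich C1-sgKMT2D cells and SDC2 44.1 CPM in VIM-rich C1-sgEED cells.

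Levels are in CPM, the UMIs of a gene per 1000000 gene UMIs, with both summed over the cells of a group. Each transcript is tagged once at its 3′ end, so UMI levels do not grow with transcript length. Levels of different genes are set side by side on that ground, and other differences in capture between genes were not checked. Brackets hold exact 95% intervals, which cover counting error only, and a level in a pool of cells does not tell fewer expressing cells from less RNA per cell. A gene was counted as higher or lower in a comparison when it reached 10 CPM in either group and differed by at least 1.5-fold.

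Within C1-sgEED, 5 of the 10 genes were higher in VIM-rich than in KRT17-rich cells (SDC2, DCN, BGN, LUM and VCAN) and 4 were lower (SDC1, SDC4, HSPG2 and AGRN), while 13.5% of the 8060 genes measured were higher and 14.8% lower. Within C1-sgKMT2D, 7 genes were measurable, of which DCN and VCAN were higher and SDC1 was lower, against 7.52% and 7.4% of 7458 genes. Among KRT17-rich cells, VCAN was higher in C1-sgEED than in C1-sgControl and SDC1, SDC4, HSPG2 and AGRN were lower, 1 and 4 of 6 measurable genes, against 8.2% and 5.18% of 7795 genes. The same genes were higher and lower in KRT17-rich C1-sgKMT2D cells, again out of 6, against 6.55% and 13.9% of 7614 genes. These comparisons share their control cells. Between the VIM-rich cells of both knockouts, DCN was higher in C1-sgKMT2D and SDC2, BGN, LUM and GPC1 were lower, out of 10 genes, against 9.47% and 19.5% of 7793 genes. The genes were picked with these ratios known, and nothing is read from the distance to the background shares.

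**Figure D2:**
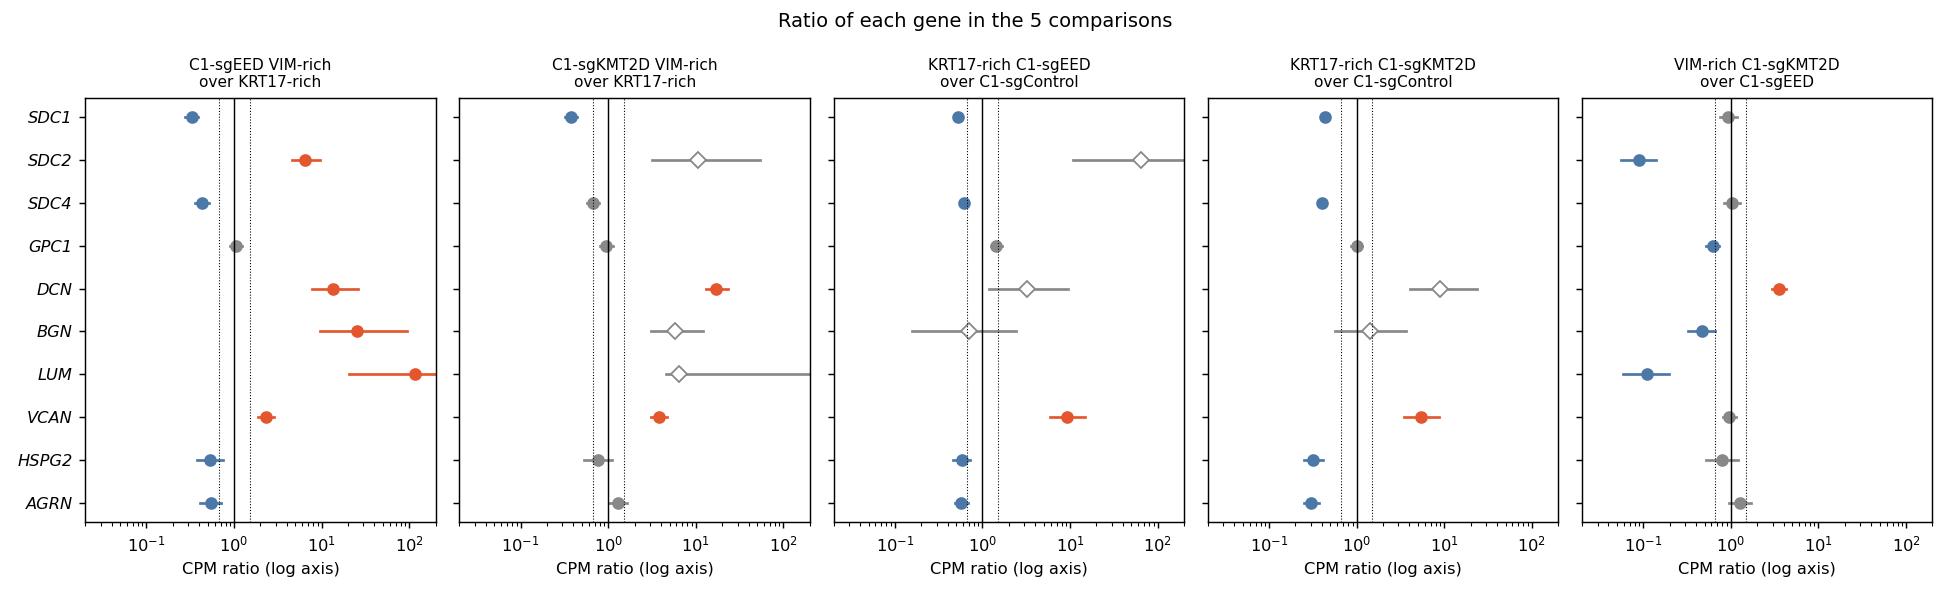
Ratio of CPM (log axis, clipped at 0.02 and 200) of each gene in the 5 comparisons, with exact 95% intervals; red is at least 1.5-fold higher, blue at least 1.5-fold lower and grey neither. Open diamonds are genes under 10 CPM in both groups, LUM within C1-sgKMT2D is a lower bound, and genes at or under 3 counts in both groups are not drawn. SDC1 lies below 1 in both comparisons of states (3.06-fold and 2.66-fold lower), and DCN lies above 1 in both (13.5-fold and 17.1-fold higher).

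SDC1 (ENSG00000115884; GRCh38 chromosome 2, 20200797 to 20225433, minus strand, protein coding), the epithelial syndecan, was highest among the 3 lines in KRT17-rich control cells, lower in the KRT17-rich cells of both knockouts and lowest in their VIM-rich cells. KRT17-rich cells of the control held 196 CPM (188 to 206), those of C1-sgEED 104 CPM (95.8 to 113) and those of C1-sgKMT2D 84.9 CPM (78.6 to 91.6). VIM-rich C1-sgEED cells held 34.1 CPM (28.99 to 39.8) and VIM-rich C1-sgKMT2D cells 31.9 CPM (27.5 to 36.8). The intervals of these last values overlap, and those of all the former values are apart. Hashtag 2 had 199 CPM in KRT17-rich cells, with an interval that overlaps that of the control, and 90.2 CPM in VIM-rich cells, and the 68 VIM-rich control cells had 155 CPM (119 to 199).

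The step between states was 3.06-fold (2.56 to 3.67) in C1-sgEED and 2.66-fold (2.26 to 3.15) in C1-sgKMT2D. Among KRT17-rich cells SDC1 was 1.89-fold lower (1.71 to 2.08) in C1-sgEED and 2.31-fold lower (2.12 to 2.53) in C1-sgKMT2D than in the control. The lower level was thus also present in cells that kept KRT17. With each cell thinned to 2000 UMIs, 30.8% of KRT17-rich control cells had an SDC1 UMI, against 19.4% and 15.4% of KRT17-rich and 5.88% and 4.40% of VIM-rich cells of C1-sgEED and C1-sgKMT2D (62.3%, 37.9%, 38.4%, 10.99% and 12.5% before thinning). Cells under 2000 UMIs were left out, from 40 to 104 in these groups. The order of the thinned shares follows the order of the CPM levels.

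From a VIM share of 0.5 up, SDC1 in the knockouts also followed the VIM share, while the intervals of their KRT17-rich ranges overlap. The range from 0.5 to 0.9 includes cells with equal VIM and KRT17 UMIs, which enter no state. In C1-sgEED SDC1 was at 108 CPM (93.8 to 124) in cells with a VIM share under 0.1 and 102 CPM (91.9 to 113) from 0.1 to 0.5. It was at 59.7 CPM from 0.5 to 0.9 and 20.8 CPM above 0.9. In C1-sgKMT2D the same ranges gave 92.1 (75.2 to 112), 83.7 (77.0 to 90.9), 48.1 and 13.4 CPM. Control cells gave 213, 187 and 158 CPM in the ranges up to 0.9 and had no cell above it. In each shared range the control level was above both knockouts, including cells with a VIM share under 0.1. KRT17-rich cells of C1-sgKMT2D also held more VIM (2729 CPM) than those of C1-sgEED (1167) and the control (1109). The ranges match the VIM share and not the VIM level. Under a share of 0.1, VIM was at 1188 CPM in C1-sgKMT2D, 430 in C1-sgEED and 498 in the control. From 0.1 to 0.5 it was at 2985, 1546 and 1454 CPM.

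**Figure D3:**
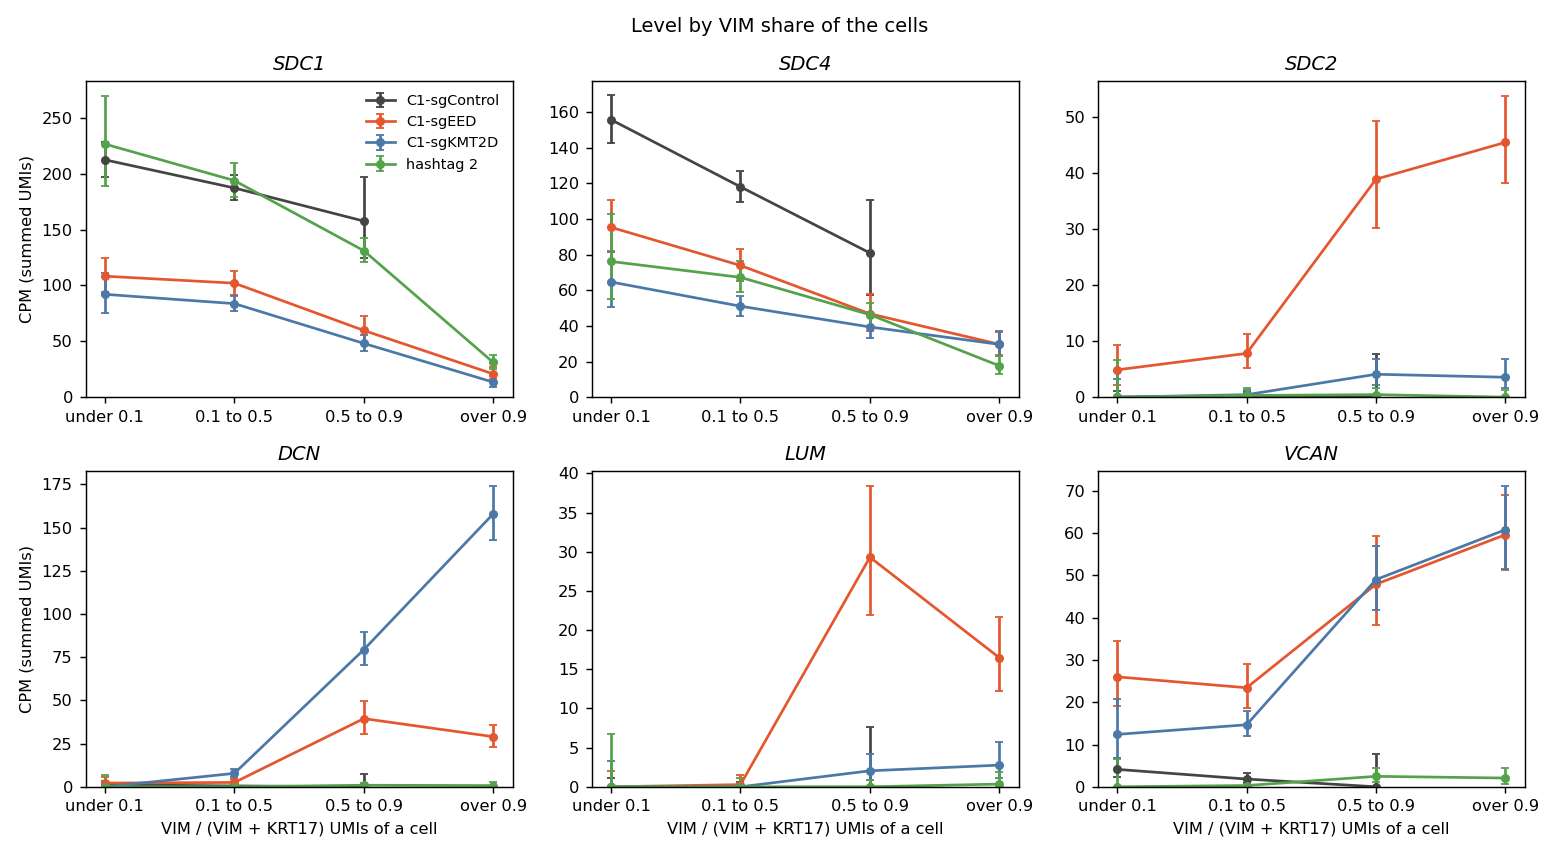
Level (CPM) of SDC1, SDC4, SDC2, DCN, LUM and VCAN by the share of VIM in the summed VIM and KRT17 UMIs of a cell, in 4 ranges, for each line and hashtag 2, with exact 95% Poisson intervals. The SDC1 values fall with the VIM share in every line drawn, from 108 to 20.8 CPM in C1-sgEED and from 92.1 to 13.4 CPM in C1-sgKMT2D. Its intervals in the ranges under 0.1 and from 0.1 to 0.5 overlap in every line. DCN in C1-sgKMT2D goes from 0 to 158 CPM.

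SDC4 (ENSG00000124145; chromosome 20, 45325288 to 45348424, minus strand, protein coding), a widely expressed syndecan of focal adhesions, was likewise lower in KRT17-rich cells of both knockouts than in those of the control, and lower again in VIM-rich C1-sgEED cells. KRT17-rich control cells held 132 CPM (124 to 139), KRT17-rich C1-sgEED cells 81.2 CPM (73.8 to 89.1) and KRT17-rich C1-sgKMT2D cells 52.97 CPM (48.0 to 58.3). VIM-rich C1-sgEED cells held 34.9 CPM (29.8 to 40.7) and VIM-rich C1-sgKMT2D cells 35.5 CPM (30.8 to 40.6). The VIM-rich levels of both knockouts overlap. Hashtag 2 had 68.5 CPM in KRT17-rich and 34.3 CPM in VIM-rich cells. VIM-rich C1-sgEED cells were 2.32-fold below KRT17-rich ones (1.94 to 2.80), and the step in C1-sgKMT2D, 1.49-fold (1.26 to 1.77), was just short of 1.5-fold and passed it under 5 alternatives (ratios of 0.417 to 0.647). Against control, KRT17-rich cells were 1.62-fold lower (1.45 to 1.81) in C1-sgEED and 2.49-fold lower (2.22 to 2.78) in C1-sgKMT2D. Over the 4 ranges of the VIM share SDC4 went from 95.3 to 29.6 CPM in C1-sgEED and from 64.6 to 29.6 CPM in C1-sgKMT2D.

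SDC2 (ENSG00000169439; chromosome 8, 96493351 to 96611780, plus strand, protein coding), the syndecan known from fibroblasts and other mesenchymal cells, was read mostly in C1-sgEED. It was at 44.1 CPM (38.3 to 50.5) in VIM-rich and 6.81 CPM (4.79 to 9.39) in KRT17-rich C1-sgEED cells. C1-sgKMT2D cells held 3.94 CPM (2.50 to 5.91) and 0.377 CPM, the latter from 3 UMIs. Control cells had 1 UMI in the 1619 KRT17-rich cells and 0 in the 68 VIM-rich cells, and hashtag 2 was at 0.257 and 0.280 CPM. VIM-rich C1-sgEED cells stood apart from all other groups.

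In VIM-rich cells SDC2 was 11.2-fold lower (7.25 to 18.0) in C1-sgKMT2D than in C1-sgEED, whereas SDC1 and SDC4 had ratios of 0.936 (0.753 to 1.16) and 1.02 (0.824 to 1.25). Between the states of C1-sgEED it was 6.47-fold higher (4.54 to 9.45) in VIM-rich cells. KRT17-rich C1-sgEED cells held 37 SDC2 UMIs against 1 in KRT17-rich control cells, a ratio of 64.0 (10.8 to 2597) at a level under 10 CPM. In cells thinned to 2000 UMIs, 8.36% of VIM-rich C1-sgEED cells had an SDC2 UMI, 0.917% of those of C1-sgKMT2D and 0 of 1553 KRT17-rich control cells. The interval of the last share reaches up to 0.237%. Before thinning the shares were 14.9%, 1.92% and 0.062%, at median depths of 3483.5, 4577 and 5697 UMIs. SDC2 in C1-sgEED was at 4.87 and 7.81 CPM in the lower ranges of the VIM share and at 38.9 and 45.5 CPM in the upper ranges.

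The makeup of the syndecan UMIs therefore differed between the lines. In KRT17-rich control cells SDC1 made up 59.9% and SDC4 40.1% of syndecan UMIs, with a summed level of 328 CPM. The sum was 192 CPM in KRT17-rich and 113 CPM in VIM-rich C1-sgEED cells, and SDC2 made up 3.54% and 39.0% of it. In C1-sgKMT2D the sum was 138 and 71.3 CPM, with SDC2 at 0.273% and 5.53%. VIM-rich C1-sgEED cells thus held these 3 syndecans in near equal parts (30.1% SDC1, 39.0% SDC2 and 30.9% SDC4). Of the 3, VIM-rich C1-sgKMT2D cells held mainly SDC4 (49.8%) and SDC1 (44.7%). VIM-rich cells of hashtag 2 kept 72.3% SDC1 at a sum of 125 CPM.

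GPC1 (ENSG00000063660; chromosome 2, 240435671 to 240468078, plus strand, protein coding), a heparan sulfate proteoglycan anchored to the membrane by a lipid, differed little between the states of the knockouts. It was at 64.2 CPM in KRT17-rich and 68.1 CPM in VIM-rich C1-sgEED cells, a ratio of 1.06 (0.908 to 1.24), and at 44.7 and 42.5 CPM in C1-sgKMT2D, a ratio of 0.951 (0.806 to 1.12). KRT17-rich control cells held 44.6 CPM (40.4 to 49.0). Both C1-sgEED groups lay above all others, and the intervals of the other groups with over 1000 cells in the 3 lines overlap. Hashtag 2 was at 44.6 CPM (38.2 to 51.8) in KRT17-rich and 33.3 CPM (29.2 to 37.8) in VIM-rich cells, with intervals that lie apart. KRT17-rich C1-sgEED cells were 1.44-fold above control (1.25 to 1.67), short of 1.5-fold, and KRT17-rich C1-sgKMT2D cells had a ratio to control of 1.00 (0.868 to 1.16). In VIM-rich cells GPC1 was 1.60-fold lower (1.35 to 1.90) in C1-sgKMT2D than in C1-sgEED. That call ends when mitochondrial and ribosomal protein genes are left out of the total (ratio 0.683), as a mean over cells (0.689) and in cells thinned to 2000 UMIs (0.675).

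DCN (ENSG00000011465; chromosome 12, 91140484 to 91183123, minus strand, protein coding), a collagen-binding proteoglycan that also binds TGF-beta, was highest in VIM-rich C1-sgKMT2D cells. It was at 114 CPM (105 to 123) there and at 32.4 CPM (27.4 to 37.9) in VIM-rich C1-sgEED cells. Among KRT17-rich cells, those of C1-sgKMT2D held 6.67 CPM (4.995 to 8.72), those of C1-sgEED 2.39 CPM (1.27 to 4.09) and control cells 0.744 CPM, from 7 UMIs. The VIM-rich levels of the knockouts do not overlap with each other or with any other group. Hashtag 2 had 0 UMIs in KRT17-rich cells and 0.839 CPM, from 6 UMIs, in VIM-rich cells.

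VIM-rich cells were 17.1-fold above KRT17-rich cells (12.9 to 23.0) in C1-sgKMT2D and 13.5-fold above them (7.68 to 26.0) in C1-sgEED. Between the knockouts, VIM-rich C1-sgKMT2D cells were 3.52-fold higher (2.94 to 4.22). The size of the step between the states rests on where the cells are divided: in C1-sgKMT2D it was 46.6-fold with a margin of 3 to 1 between VIM and KRT17 UMIs, and 5.65-fold when cells were divided by summed epithelial and mesenchymal markers. In C1-sgKMT2D DCN went from 0 CPM in cells with a VIM share under 0.1 to 7.77, 79.3 and 158 CPM in the next ranges. In C1-sgEED the ranges gave 2.17, 2.51, 39.5 and 28.99 CPM, so DCN was no higher in the cells richest in VIM than in the range before.

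DCN UMIs were unevenly spread over cells. Of VIM-rich C1-sgKMT2D cells thinned to 2000 UMIs, 15.2% had a DCN UMI (23.8% before thinning), against 6.43% in C1-sgEED (9.90%) and 0.064% of KRT17-rich control cells (0.432%). The variance of thinned counts over their mean (Fano factor) was 2.03 in VIM-rich C1-sgKMT2D cells and 1.14 in those of C1-sgEED. The highest count in 1 cell was 17 UMIs and 5 UMIs. The Fano factors of the other members with a value in these groups lay near 1, from 0.964 for AGRN to 1.19 for BGN.

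BGN (ENSG00000182492; chromosome X, 153494939 to 153509554, plus strand, protein coding), a relative of decorin that binds collagen, was highest in VIM-rich C1-sgEED cells. It was at 18.7 CPM (15.03 to 23.1) there, 8.74 CPM (6.51 to 11.5) in VIM-rich C1-sgKMT2D cells, and 4.62 CPM (3.18 to 6.48) in VIM-rich hashtag 2 cells. KRT17-rich cells of the control, C1-sgEED and C1-sgKMT2D held 1.06, 0.736 and 1.51 CPM, with intervals that overlap. VIM-rich C1-sgEED cells were 25.4-fold above KRT17-rich ones (9.59 to 95.5), with only 4 UMIs in the latter. The ratio in C1-sgKMT2D was 5.79 (3.04 to 11.9) at levels under 10 CPM, and VIM-rich C1-sgKMT2D cells were 2.14-fold below those of C1-sgEED (1.502 to 3.09).

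LUM (ENSG00000139329; chromosome 12, 91102629 to 91111831, minus strand, protein coding), a keratan sulfate proteoglycan of collagen fibrils, was found almost wholly in VIM-rich C1-sgEED cells. These held 21.5 CPM (17.5 to 26.1), from 101 UMIs, and VIM-rich C1-sgKMT2D cells held 2.40 CPM (1.31 to 4.03), from 14 UMIs. KRT17-rich C1-sgEED cells and VIM-rich hashtag 2 cells had 1 UMI each, and the other groups had 0. The ratio between the states of C1-sgEED was 117 (20.5 to 4660), resting on that 1 UMI. In C1-sgKMT2D the VIM-rich cells were at least 6.36-fold higher, taking 3 counts over the group as the limit for the 0 UMIs of KRT17-rich cells. LUM was 8.96-fold lower (5.10 to 17.0) in VIM-rich C1-sgKMT2D than in VIM-rich C1-sgEED cells.

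LUM and DCN are neighbours on chromosome 12 and are read from the same strand, 28.7 kb apart, with 0 other genes of the matrix between them. The neighbours differed between the knockouts in opposite directions: DCN was 3.52-fold higher and LUM 8.96-fold lower in VIM-rich C1-sgKMT2D cells. Of the summed DCN, BGN and LUM UMIs, VIM-rich C1-sgEED cells had 44.6% DCN, 25.8% BGN and 29.6% LUM at a sum of 72.6 CPM. VIM-rich C1-sgKMT2D cells had 91.1%, 6.996% and 1.92% at a sum of 125 CPM. KRT17-rich control cells had a sum of 1.81 CPM. The knockouts thus both held small leucine-rich proteoglycan transcripts in VIM-rich cells, but in different proportions.

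**Figure D4:**
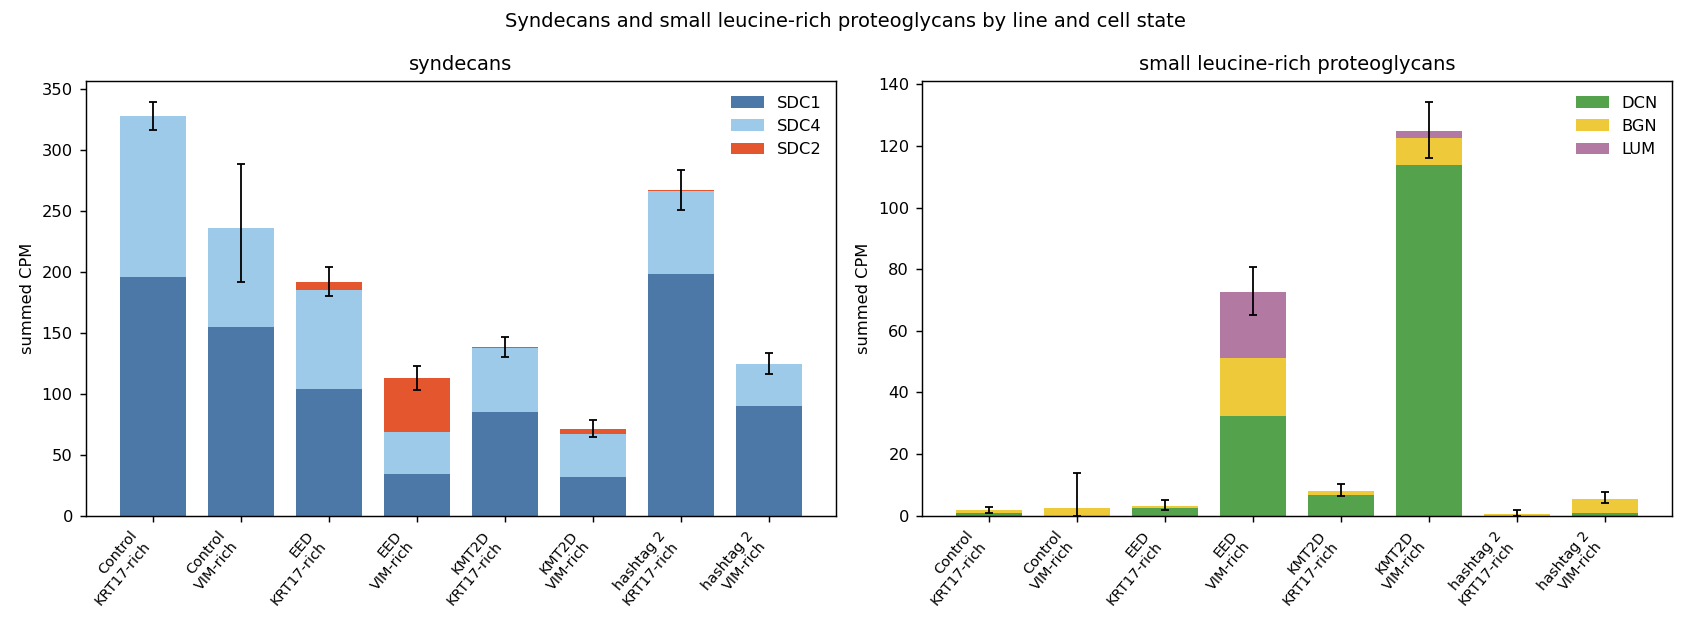
Summed level (CPM) of the syndecans SDC1, SDC2 and SDC4 and of the small leucine-rich proteoglycans DCN, BGN and LUM in each group, stacked by gene. The syndecan sum is 328 CPM in KRT17-rich control cells and 113 and 71.3 CPM in VIM-rich C1-sgEED and C1-sgKMT2D cells, with SDC2 making up 39.0% and 5.53%; of the second family DCN makes up 44.6% and 91.1% in these VIM-rich cells.

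VCAN (ENSG00000038427; chromosome 5, 83471465 to 83582303, plus strand, protein coding), the large chondroitin sulfate proteoglycan of loose matrix, was higher in both states of both knockouts than in control cells. KRT17-rich control cells held 2.66 CPM (1.72 to 3.92), those of C1-sgEED 24.3 CPM (20.3 to 28.8) and those of C1-sgKMT2D 14.3 CPM (11.8 to 17.2). VIM-rich cells held 56.4 CPM (49.8 to 63.6) and 54.3 CPM (48.5 to 60.6). The VIM-rich levels overlap, and the KRT17-rich levels of the knockouts lie apart from each other and from control. KRT17-rich cells were 9.14-fold (5.93 to 14.6) and 5.40-fold (3.48 to 8.68) above control in C1-sgEED and C1-sgKMT2D.

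The step to VIM-rich cells was 2.32-fold (1.88 to 2.88) in C1-sgEED and 3.79-fold (3.05 to 4.73) in C1-sgKMT2D. Of the 10 members, VCAN alone was called above control in KRT17-rich cells of both knockouts. Even in cells with a VIM share under 0.1 it was at 26.0 CPM in C1-sgEED, against 4.12 CPM in the control, and at 12.4 CPM in C1-sgKMT2D. Hashtag 2 held 0.257 and 2.24 CPM.

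HSPG2 (ENSG00000142798; chromosome 1, 21822245 to 21937297, minus strand, protein coding) and AGRN (ENSG00000188157; chromosome 1, 1020123 to 1056118, plus strand, protein coding), the basement membrane proteoglycans, were lower in KRT17-rich cells of both knockouts than in the control. HSPG2 was at 34.1 CPM (30.5 to 38.1) in control cells, 19.9 CPM (16.3 to 24) in those of C1-sgEED and 10.9 CPM (8.77 to 13.5) in those of C1-sgKMT2D. AGRN was at 58.7 CPM (53.9 to 63.8), 33.5 CPM (28.8 to 38.7) and 17.9 CPM (15.05 to 21.1). The intervals of the 3 lines lie apart for both genes. Against control, HSPG2 was 1.72-fold lower (1.38 to 2.16) in C1-sgEED and 3.12-fold lower (2.45 to 4.00) in C1-sgKMT2D, and AGRN 1.75-fold (1.48 to 2.08) and 3.29-fold lower (2.73 to 3.98).

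Both genes lie on chromosome 1, so the genes around them were read as well. The median log2 ratio to control of the measured genes within 10 Mb of HSPG2 was 0.00 in C1-sgEED (107 genes) and -0.12 in C1-sgKMT2D (107 genes), and around AGRN it was -0.02 (70 genes) and -0.10 (66 genes). Over all genes the medians were 0.07 and -0.02. Of these genes, 4 of 107 around HSPG2 and 9 of 70 around AGRN were at least 1.5-fold lower in C1-sgEED, against 5.18% of all genes, and 21 of 107 and 12 of 66 in C1-sgKMT2D, against 13.9%. The part of the position in the lower levels of HSPG2 and AGRN was not tested.

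Between the states, HSPG2 and AGRN were lower in VIM-rich C1-sgEED cells, at 10.6 CPM (1.87-fold, 1.32 to 2.67) and 18.1 CPM (1.85-fold, 1.42 to 2.42). In C1-sgKMT2D, HSPG2 was at 8.40 CPM in VIM-rich cells (ratio 0.767, 0.529 to 1.10) and AGRN at 23.0 CPM (ratio 1.29, 1.007 to 1.64), neither past 1.5-fold. AGRN went from 37.4 to 15.2 CPM over the ranges of the VIM share in C1-sgEED and from 20.4 to 23.7 CPM in C1-sgKMT2D. In VIM-rich cells the ratio of C1-sgKMT2D to C1-sgEED was 0.789 (0.521 to 1.19) for HSPG2, 1.27 (0.960 to 1.69) for AGRN and 0.963 (0.815 to 1.14) for VCAN.

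The ratios between the states depend on how cells are divided. Dividing them by 10 epithelial against 10 mesenchymal markers in place of KRT17 and VIM put the SDC1 ratio at 0.123 in C1-sgEED and 0.151 in C1-sgKMT2D, lower than by KRT17 and VIM, and it was 0.205 in C1-sgKMT2D with the 3 to 1 margin. It put SDC2, DCN and LUM at 3.25-fold, 5.52-fold and 9.06-fold higher in C1-sgEED, less than by KRT17 and VIM. SDC4 and HSPG2 then lost their calls in C1-sgEED, at ratios of 0.806 and 0.687. Between the mesenchymal cells of the knockouts SDC4 became lower (0.399) and AGRN higher (1.77) in C1-sgKMT2D, and BGN was at 0.241. Against control, VCAN was then 10.7-fold higher in C1-sgKMT2D. HSPG2 was called lower between the states of C1-sgKMT2D with thinned cells (0.568) and with the stricter cell filter (0.567), and in that filter also in C1-sgKMT2D against C1-sgEED (0.623).

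In the comparison of VIM-rich cells of the knockouts the scaling moves all genes together. The median log2 ratio of all genes was -0.12, with 738 genes higher and 1519 lower (32.7% of the calls higher). Without mitochondrial and ribosomal protein genes in the total it was 0.02, with 1331 higher and 1302 lower (50.6%). DCN then stood at 3.85-fold higher and SDC2, BGN and LUM at ratios of 0.098, 0.511 and 0.122, so these calls were kept, while GPC1 lost its call. SDC1 and VCAN crossed 1, to 1.02 and 1.05, and neither was called under either scaling.

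Within the VIM-rich cells some members were found in the same cells. In C1-sgKMT2D, the 272 cells with a DCN UMI held 11.8 CPM of SDC1, against 37.96 CPM in the 871 cells without, or 3.22-fold less, at median depths of 4553.5 and 4577 UMIs. The same cells held 75.9 CPM of VCAN against 47.8 CPM, and 30.2 CPM of SDC4 against 37.1 CPM. SDC1 thus differed by more than SDC4 between these cells, and SDC2 had only 23 UMIs in all. The ratio for SDC4 was 0.815 (0.565 to 1.15). From VIM shares of 0.5 to 0.9 to those above 0.9, DCN rose from 79.3 to 158 CPM and SDC1 fell from 48.1 to 13.4 CPM. The part of the VIM share in the SDC1 difference was not tested. In C1-sgEED, the 88 cells with a LUM UMI held 77.1 CPM of DCN against 28.2 CPM in the others, 37.3 CPM of BGN against 17.0, and 97.0 CPM of VCAN against 52.6, at median depths of 4070 and 3435.5 UMIs. The 178 C1-sgEED cells with an SDC2 UMI held 31.8 CPM of DCN against 32.5 CPM, and the 22 C1-sgKMT2D cells with an SDC2 UMI held 265 CPM of DCN, from 29 UMIs, against 111 CPM (2.39-fold, 1.59 to 3.46). These are descriptions of sparse counts, in which a cell without a UMI may still express the gene.

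Other genes of the pathway were read from lists chosen with earlier results of these data known. Of 36 other proteoglycan genes, 8 were measurable between the states of C1-sgEED, with 4 higher and 0 lower (median log2 ratio 0.72, against 0.03 over all genes), and 7 in C1-sgKMT2D, again with 4 higher and 0 lower (0.65 against 0.01). Of all genes 13.5% were higher and 14.8% lower in C1-sgEED, and 7.52% and 7.4% in C1-sgKMT2D. Serglycin (SRGN), a proteoglycan of secretory granules, was at 221 CPM in VIM-rich and 7.91 CPM in KRT17-rich C1-sgEED cells, and at 59.5 and 6.67 CPM in C1-sgKMT2D. SPOCK1 (testican-1) was at 84.1 against 14.2 CPM between the states of C1-sgEED. COL18A1, the collagen whose core carries heparan sulfate, was at 24.5 against 11.8 CPM in C1-sgEED and at 11.8 against 3.40 CPM in C1-sgKMT2D. Between the VIM-rich cells, 1 of 9 was higher in C1-sgKMT2D, the glypican GPC6 (14.6 against 4.90 CPM), and 4 were lower, among them SPOCK1 (6.51 against 84.1 CPM) and SRGN, beside 9.47% and 19.5% of all genes. Among KRT17-rich cells, 3 of 7 were above control in C1-sgEED, led by SPOCK1 (14.2 against 6.38 CPM) and NRP1. In C1-sgKMT2D 1 of 5 was, SMC3, better known as a cohesin subunit (141 against 77.5 CPM), with 0 lower in either line. Of all genes, 8.2% were higher and 5.18% lower than control in C1-sgEED, and 6.55% and 13.9% in C1-sgKMT2D.

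Between the states, the counts of the lists that follow stand beside 13.5% of all genes higher and 14.8% lower in C1-sgEED, and 7.52% and 7.4% in C1-sgKMT2D. Of 14 linker and precursor enzymes, 9 were measurable in C1-sgEED with 1 higher, UGDH (34.9 against 17.5 CPM), which makes UDP-glucuronate, and 8 in C1-sgKMT2D with 0 higher and 0 lower. Of 21 heparan sulfate chain enzymes, 2 of 7 were higher (EXTL2 and HS2ST1) and 1 lower (EXTL3) in C1-sgEED, and 1 of 4 was higher in C1-sgKMT2D, the sulfotransferase HS3ST3B1 (12.3 against 3.65 CPM). Of 16 chondroitin and dermatan sulfate enzymes, 1 of 9 was higher and 3 lower in C1-sgEED, and 2 of 7 higher and 1 lower in C1-sgKMT2D. The 2 dermatan sulfate epimerase genes went in opposite directions in both lines. DSEL was at 65.6 against 12.5 CPM in C1-sgEED and 32.9 against 11.6 CPM in C1-sgKMT2D, whereas DSE was at 20.9 against 44.2 CPM and 23.0 against 40.0 CPM.

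Against control, KRT17-rich C1-sgKMT2D cells had 4 of 7 heparan sulfate enzymes lower and 0 higher (median log2 ratio -0.67, against -0.02 over all genes). NDST1, which starts the sulfation of the chain, was at 6.29 against 13.9 CPM and the chain polymerase EXT2 at 14.3 against 26.1 CPM. KRT17-rich C1-sgEED cells had 1 of 7 higher (EXTL2) and 1 lower, EXT1 (65.9 against 100.3 CPM), with a median of -0.10 against 0.07. DSE and CHPF2 were the 2 chondroitin and dermatan sulfate enzymes lower in each line, with DSE at 44.2 and 40.0 CPM against 74.97 CPM in control. Of the linker enzymes, 1 of 9 was higher in C1-sgEED and 0 of 8 were past 1.5-fold in C1-sgKMT2D. Over all genes 8.2% were higher and 5.18% lower in C1-sgEED, and 6.55% and 13.9% in C1-sgKMT2D. In VIM-rich cells, 3 of 9 linker, 4 of 7 heparan sulfate and 2 of 8 chondroitin sulfate enzymes were lower in C1-sgKMT2D than in C1-sgEED. Of all genes 19.5%, or 1519 genes, were lower, and 1302 without mitochondrial and ribosomal protein genes in the total. Of the linker enzymes, B4GALT7 and B3GALT6 were 1.57-fold and 1.51-fold lower, near the limit of 1.5-fold. GPC1, at 1.60-fold lower, lost its call with the latter total, and the counts of these lists with it are not given here. Higher in VIM-rich C1-sgKMT2D than in C1-sgEED cells were HS3ST3B1 and CHST15, 1 gene each of the heparan sulfate and chondroitin sulfate lists.

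The list of genes that cut or trim proteoglycans, which also holds the metalloproteinase inhibitor TIMP3, went both ways between the states. In C1-sgEED 2 of 13 were higher and 3 lower, and in C1-sgKMT2D 3 of 12 higher and 3 lower (all genes 13.5% and 14.8%, and 7.52% and 7.4%). TIMP3 was among those lower in C1-sgKMT2D, at 25.5 against 62.5 CPM. The gelatinase MMP9 was at 14.7 against 84.1 CPM and 3.43 against 13.2 CPM, and the heparan sulfate 6-O-endosulfatase SULF2 at 47.5 against 97.9 CPM in C1-sgEED. ADAM17, a sheddase of syndecans, was at 33.1 against 20.01 CPM between the states of C1-sgKMT2D. Among KRT17-rich cells 3 of 13 were below control in C1-sgEED and 5 of 13 in C1-sgKMT2D, with 0 higher in either, beside 5.18% and 13.9% of all genes lower and 8.2% and 6.55% higher. MMP14, which also sheds SDC1, was at 18.4 and 10.2 CPM against 36.2 CPM in the control, and MMP9 at 13.2 CPM in C1-sgKMT2D against 121 CPM. In VIM-rich cells 1 of 12 was higher and 4 lower in C1-sgKMT2D than in C1-sgEED, beside 9.47% and 19.5% of all genes. The lower ones again included the inhibitor TIMP3 (25.5 against 70.5 CPM).

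Of 46 ligands and partners in the matrix, 7 of 28 were higher and 10 lower in VIM-rich C1-sgEED cells, and 8 of 27 higher and 8 lower in C1-sgKMT2D, beside 13.5% and 14.8%, and 7.52% and 7.4%, of all genes. Fibrillin-1 (FBN1), a partner of versican, was at 48.5 against 1.47 CPM and 13.2 against 1.007 CPM, and the hyaluronan synthase HAS2 at 11.1 against 0.881 CPM in C1-sgKMT2D. FGFBP1, which carries FGF off heparan sulfate, was at 50.0 against 340 CPM and 103 against 419 CPM. SDCBP2 (syntenin-2), which is related to the syndecan-binding protein syntenin, was at 12.6 against 78.04 CPM in C1-sgEED. Against control 3 of 27 were higher and 8 lower in KRT17-rich C1-sgEED cells, and 1 of 26 higher and 13 lower in those of C1-sgKMT2D, beside 8.2% and 5.18%, and 6.55% and 13.9%, of all genes. The connective tissue growth factor gene, listed as CTGF, was at 65.0 and 8.05 CPM in these cells against 21.6 CPM in control, opposite directions in the knockouts. Between VIM-rich cells, 5 of 29 were higher and 10 lower in C1-sgKMT2D, beside 9.47% and 19.5% of all genes. The EGF family ligand AREG was at 1197 against 387 CPM, and pleiotrophin (PTN), a ligand of syndecans, at 2.91 against 33.6 CPM.

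Genes with levels most like those of each member were ranked by Pearson's r of log2(CPM + 1) over the 8 groups, among 6150 genes. The 8 groups share 1 library and differ in depth, and with so few points high values are common. LUM was most like HHIP (0.982), POSTN (0.982) and MGP (0.969), and SDC1 most like IL1A (0.981), CSTA (0.977) and PLAU (0.975). For SDC2 they were MEST, SAE1 and LSM10 (0.977 to 0.961), for SDC4 SERPINB2, ATP2A2 and MAPKBP1 (0.986 to 0.978), and for GPC1 GRB2, SCAND1 and FHL2 (0.969 to 0.948). For DCN they were RSBN1L, PDS5B and PVRL3 (0.968 to 0.957), for BGN DAB2, MFAP1 and PPP2R3C (0.982 to 0.974), and for VCAN ZNF22, NDUFS1 and EDEM2 (0.988 to 0.981). HSPG2 was most like FST, MOB3A and BPHL (0.986 to 0.978), and BRD2 (0.978) and CD81 (0.968) were among the genes most like AGRN.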

How the data were processed

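The deposited table gives UMI counts (whole numbers) of 33694 genes and 4 hashtags in 10336 distinct barcodes, made by the authors with Cell Ranger 3.0.2 on GRCh38 per the submitters' processing notes. The libraries used the 10x Genomics 3′ kit per the labels' protocols. Neither the annotation version nor a further barcode filter is named in the sources used here. The members and lists were chosen with earlier results of these data known.

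Barcodes with at least 500 genes and at most 20% mitochondrial UMIs were kept (9193, with 1143 removed). Hashtags were called per barcode where log10(count + 1) exceeded the point at which the curves of a mixture of 2 Gaussians cross (scikit-learn 1.9.0). Barcodes positive for several hashtags (820, or 8.92%) or for none (27) were left out, which removes doublets between lines. About 279 doublets within a line (3.35% of cells with 1 hashtag) are expected to remain and were left in. Cells with at least 5 UMIs of VIM and KRT17 together were divided by the larger of the 2, and ties were left out.

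UMIs of each line and state were added up and given as CPM of the total over genes. Levels have exact Poisson, ratios exact conditional binomial and shares exact Clopper-Pearson intervals at 95%, computed with scipy 1.17.1. The ratio intervals were tested on simulated Poisson counts, which is the model they assume. That test cannot tell how they hold for counts spread unevenly over cells. All these intervals cover counting error only. With 1 sample per line no p-value was computed. Where a group had 0 UMIs, the fold was bounded at 3 counts over the group. Thinned cells were drawn to 2000 UMIs.

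Named genes are the 10 members, the 2 highest and 2 lowest of each list past 1.5-fold in each comparison, and the 3 genes most like each member (at least 20 CPM in a group). Fewer of each list are named in the text, and 1 gene of the likeness ranking is not reported here. Gene positions come from GENCODE v29 by gene identifier, and promoters from RefSeq (GRCh38.p14). Alternatives changed the cell filter, the hashtag call, the division of cells, the scaling, the depth, the deepest cells and the filter on low levels. The medians of genes within 10 Mb of a member were added after the ratios had been seen.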

Additional observations from a re-analysis of the deposited data

Results flagged for a closer look

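BGN was read in the VIM-rich cells of hashtag 2, which enter no comparison, at 4.62 CPM (3.18 to 6.48), against 1.06 CPM (0.510 to 1.96) in KRT17-rich C1-sgControl cells. It stands here because these cells have no line in the labels and the level is above that of KRT17-rich control cells, which are of the other state. The 68 VIM-rich control cells held 2.47 CPM (0.062 to 13.7), an interval that holds the hashtag 2 level, and KRT17-rich hashtag 2 cells held 0.513 CPM.

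AGRN had a ratio of VIM-rich to KRT17-rich cells of 0.540 (0.413 to 0.703) in C1-sgEED and 1.29 (1.007 to 1.64) in C1-sgKMT2D. The directions are opposite, each line is 1 sample, and the difference was not tested.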

How the results depend on the processing

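Each ratio was recomputed under 9 alternatives (421 values). Of these, 384 stayed inside the interval of the reported ratio, 37 fell outside it, and 0 called ratios changed direction. The 37 came from dividing cells by markers (22), a margin of 3 to 1 (9) and thinning (6). Of 110 recomputed counts of members, 91 were within 1.5 times the reported count. With a minimum of 50 CPM, C1-sgEED VIM-rich over KRT17-rich cells had 1 higher (VCAN) and 2 lower, both comparisons with control had 0 higher, and VIM-rich C1-sgKMT2D over C1-sgEED had 1 lower (GPC1). With a minimum of 2 CPM, 5 were higher between the states of C1-sgKMT2D, and 3 and 2 were higher than control in KRT17-rich C1-sgEED and C1-sgKMT2D cells. Dividing by markers gave 2 lower between the states of each knockout, 3 and 2 higher than control, and 2 higher in VIM-rich C1-sgKMT2D (DCN and AGRN). It left 161 C1-sgEED and 220 C1-sgKMT2D cells on the mesenchymal side, so most VIM-rich cells counted as epithelial there. The lower count between the states of C1-sgKMT2D, reported as 1, was 2 under the stricter cell filter (with HSPG2) and, with SDC4, under the 3 to 1 margin, the mean over cells and without the 5% deepest cells, and 3 after thinning. Without the deepest cells 2 were higher than control in C1-sgEED, with GPC1 added. The causes of these moves were not tested. Depth limits SDC2, DCN, BGN and LUM in KRT17-rich cells, where they rest on 53 UMIs or fewer. No paired analysis was possible because each line is 1 sample, and for the same reason no replicate could be left out.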

Other observations

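The cells of hashtag 2, with 575 KRT17-rich and 1306 VIM-rich cells, were read without a line. ZEB1 was at 15.2 CPM in the VIM-rich cells, with a sum of 10 mesenchymal markers of 222 CPM and of 10 epithelial markers of 5756 CPM. SDC1, the epithelial syndecan, was at 199 CPM (185 to 213) in KRT17-rich and 90.2 CPM (83.4 to 97.5) in VIM-rich cells, and at 227, 194, 131 and 31.1 CPM over the ranges of the VIM share. Perlecan (HSPG2) was at 12.1 and 9.51 CPM and agrin (AGRN) at 26.4 and 24.1 CPM. SDC2 had 1 and 2 UMIs, DCN 0 and 6, LUM 0 and 1, and VCAN 1 and 16. BGN had 2 and 33 UMIs, the most among these matrix genes, and was at 8.63 CPM above a VIM share of 0.9.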
